A study of Mus musculus with 4 samples.

Results

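Metallothioneins are small cysteine-rich proteins that bind zinc and copper ions, and the genes Mt1 and Mt2 are switched on when free zinc rises. The zinc sensor is MTF-1, a transcription factor encoded by Mtf1 that binds metal response elements near the start of its targets. Zinc leaves the cytosol through transporters of the Slc30 family and enters it through those of the Slc39 family. The genes described here are 7 mouse genes of this system out of 20605 genes with a value in the deposited RNA-seq tables: the metallothioneins Mt1 and Mt2, the regulator Mtf1, the exporters Slc30a1 and Slc30a5, and the importers Slc39a1 and Slc39a10. They were selected on the measured contrast, because Mt1 and Mt2 fell after knockdown of Atad2, and the other 5 were listed beside them. No threshold was used in the choice. The knockdown contrast of these 7 genes is therefore given as a description, with no test.

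The libraries came from 46C mouse ES cells, a line with a GFP reporter in Sox1, that carried a TAP tag knocked into Atad2, a chromatin regulator with an ATPase domain and a bromodomain. The si-ctrl libraries (n = 2) came from cells transfected with a scrambled siRNA, and the si-Atad2 libraries (n = 2) from cells transfected with an active siRNA against Atad2. Both groups carried the tag, in a line grown from 1 targeted clone, and both were kept with LIF and fetal bovine serum on gelatin. The time between transfection and RNA extraction is not given in the sources used here. The labels number the libraries of each treatment 1 and 2, and the study describes a pair of active siRNAs as well as repeat sequencing of the RNA, so which siRNA was used for which library was not assigned, and the spread between replicates may be technical. Levels are in FPKM, a fragment count corrected for transcript length and for library size, and the depth of the libraries is unknown because the tables hold no counts. Each si-Atad2 library was compared with the si-ctrl library of the same number, which the authors had processed with it (pair 1 and pair 2). A log2 ratio is the log2 of (FPKM + 1) in si-Atad2 minus that in si-ctrl, and the value after ± is the deviation of each pair from the mean of the 2 pairs. In bulk RNA, fewer cells that express a gene and less RNA of it per cell cannot be told apart.

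Atad2 itself was at 34.1 FPKM in si-ctrl 1 and 36.0 in si-ctrl 2, and at 10.1 in si-Atad2 1 and 13.0 in si-Atad2 2. Its RNA was left at 29.6% of control in pair 1 and 36.2% in pair 2. The 8 ES cell markers summed to 2799 to 2826 FPKM in the si-ctrl libraries and to 2549 to 2629 FPKM in the si-Atad2 libraries. None of the 8 passed the threshold defined below for the fit over all genes (limma adjusted p 0.114 to 0.914). Of the 8, 3 were at an unadjusted p under 0.05 by limma, as were 1633 of the 10039 genes tested. Pou5f1, Nanog and others, 7 of the 8, were lower in both si-Atad2 libraries than in both si-ctrl libraries, as were 26.8% of all genes tested. Sox2 was higher in both, as were 22.5%. The 7 fibroblast markers summed to 7.71 to 8.49 FPKM in the si-ctrl libraries and 7.18 to 8.51 in the si-Atad2 libraries, most of it from Thy1, with Lum listed at 0 in every library. The 8 markers of primitive and visceral endoderm summed to 6.42 to 7.16 and 6.26 to 6.68 FPKM, with Afp and Ttr under 0.1 FPKM. The ES markers were thus present in all libraries, and the part of their lower sum in the values below was not tested.

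Mt1 and Mt2 lie next to each other on mouse chromosome 8 and both are read from the plus strand. In the GENCODE annotation of GRCm38, Mt2 spans chr8:94172664-94173568 and Mt1 spans chr8:94179082-94180327, with 5513 bases between them. The metal response element is a short motif whose core was searched here as TGCACNC and TGCGCNC on both strands, each match counted once, in the RefSeq promoter windows of GRCm38.p6, which run from 250 bases before to 50 bases after each annotated start. The windows of Mt2 are shown because it had the highest number of matches among the 7 genes, 4, of which 2 were on the strand of the gene and 2 on the other strand. The matched 7 bases are in capitals, each line is the plus strand read 5′ to 3′, and in the lines called "other strand" the capitals are the motif's reverse complement.
Mt2, chr8:94172384-94172412: agcatcgcctcTGCACCCggcccctcggg
Mt2, chr8:94172479-94172507: cgcagacccttTGCGCTCagctcctttgc
Mt2, chr8:94172557-94172585, other strand: ggggggagggcGTGTGCAggctctgtccc
Mt2, chr8:94172611-94172639, other strand: gaattcgggtcGTGCGCAggcccaggggc

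The RefSeq window of Mt1 held 3 matches, all on the strand of the gene. GENCODE annotates 3 Mt1 transcripts, which start at 94179082, 94179211 and 94179241, so the bases between the first and the last of these starts are a 5′ UTR in the longest transcript and lie upstream of the shortest one. Those 159 bases held 4 matches, 3 of them on the strand of the gene, that begin at positions -150, -132, -68 and -54 from the last start. They are shown because the RefSeq window ends before the last pair of them.
Mt1, chr8:94179055-94179083: cggtcccgctgTGCACACtggcgctccag
Mt1, chr8:94179089-94179117: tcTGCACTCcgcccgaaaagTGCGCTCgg
Mt1, chr8:94179169-94179197, first match on the other strand: tgctGGGTGCAaacccttTGCGCCCggac

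Slc30a1, a gene whose transcription is also known to follow MTF-1, had 2 matches in its window, both on the other strand, shown for comparison with the metallothioneins.
Slc30a1, chr1:191906727-191906755, other strand: acgggggttccGAGTGCAaagcaaagttt
Slc30a1, chr1:191906800-191906828, other strand: gcctccgggccGAGCGCAgtcgccgcgga

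Slc30a5 had 1 match, and Mtf1, Slc39a1 and both windows of Slc39a10 had 0. Among 32851 RefSeq promoter windows of the same length, 25.7% held at least 1 match, 7.11% at least 2, 1.97% at least 3 and 0.517% at least 4. The match is a description of these letters and not evidence of a bound site, and its absence from a window says only that these letters are not there. Of the 10039 genes tested, 7940 had a promoter window. Among these, the median log2 ratio was -0.00473 for the 4617 genes with 0 matches and -0.00882 for the 2200 with 1. It was -0.0165 for the 796 genes with 2, -0.02 for the 240 with 3 and -0.03 for the 87 with 4 or more. The quartiles were -0.08 and 0.08 for 0 matches and -0.12 and 0.02 for 4 or more. The difference was not tested, and Mt1 with 3 matches and Mt2 with 4 were chosen because they fell.

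**Figure D1:**
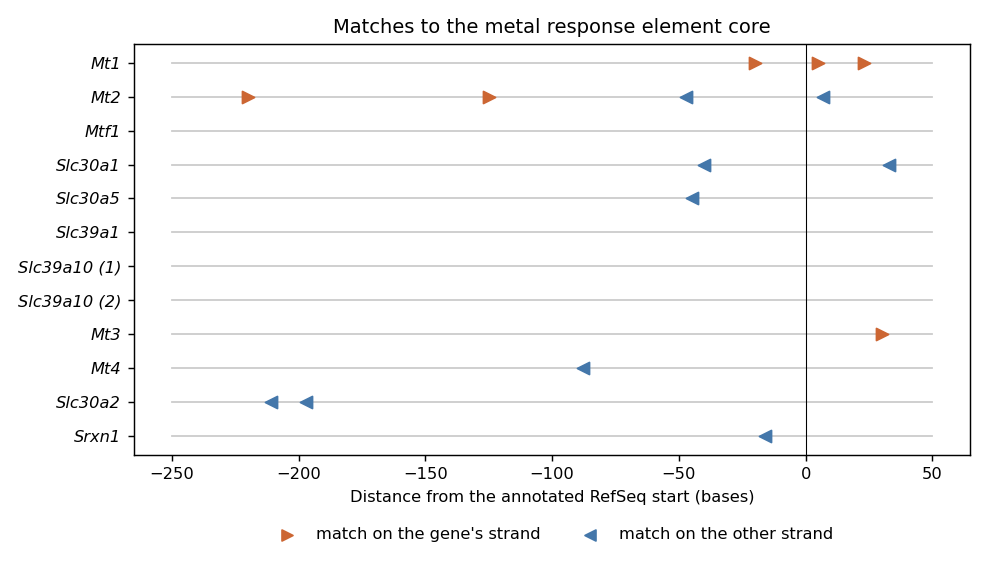
Position of each match to the metal response element core in the RefSeq promoter windows of the 7 genes and of Mt3, Mt4, Slc30a2 and Srxn1, as the distance in bases from the annotated start (0). Arrowheads to the right mark matches on the gene's strand and arrowheads to the left those on the other strand; Mt2 has 4, Mt1 has 3, and Mtf1, Slc39a1 and Slc39a10 (with 2 windows, 1 and 2) have 0.

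Mt1 and Mt2 were among the 48 genes that averaged 400 FPKM or more, and both were lower after knockdown in both pairs. Mt1 was at 816.0 FPKM in si-ctrl 1 and 753.5 in si-ctrl 2, against 583.6 in si-Atad2 1 and 419.3 in si-Atad2 2. Both si-Atad2 libraries lay below both si-ctrl libraries, and the si-Atad2 libraries differed from each other more than the si-ctrl libraries did. Mt1 was left at 71.5% of control in pair 1 and 55.6% in pair 2, a log2 ratio of -0.48 and -0.84 with a mean of -0.66 ± 0.18. Nearly all of its level came from a transcript of 542 bases, whose 95% limits as deposited lay within 1.62% to 2.31% of its FPKM, while a transcript of 755 bases was at 1.43 to 2.99 FPKM.

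Mt2 was at 1045 FPKM in si-ctrl 1 and 1060 in si-ctrl 2, against 775.6 in si-Atad2 1 and 549.6 in si-Atad2 2. The si-ctrl libraries were close to each other, and again the lower of the si-Atad2 libraries was si-Atad2 2. Mt2 was left at 74.2% of control in pair 1 and 51.8% in pair 2, with log2 ratios of -0.43 and -0.95 and a mean of -0.69 ± 0.26. From si-Atad2 1 to si-Atad2 2 the log2 level differed by -0.48 for Mt1 and -0.50 for Mt2, whereas from si-ctrl 1 to si-ctrl 2 it differed by -0.11 and 0.02. Ranked from the lowest mean log2 ratio among the 10039 genes tested, Mt2 was number 3 and Mt1 number 4. These ranks come from the contrast that chose the 2 genes. The order of the 2 genes by level was the same in every library, with Mt2 above Mt1.

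Mtf1 was low in every library. Its named transcript was at 3.04 and 3.09 FPKM in the si-ctrl libraries and 3.08 and 2.92 FPKM in the si-Atad2 libraries, so the groups overlapped, and its mean log2 ratio was -0.02 ± 0.04. The deposited 95% limits of its single named transcript reached 6.63% to 7.04% either side of its FPKM, wider than the difference between any 2 of its libraries relative to their level. A further deposited transcript of 7690 bases at this locus could not be named by the rules used here. It was at 0.21 and 0.16 FPKM in the si-ctrl libraries and 0.40 and 0.31 FPKM in the si-Atad2 libraries, higher in both pairs. With it added, the mean log2 ratio was 0.04, so no direction is given for Mtf1.

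Slc30a1, the exporter of the plasma membrane that moves zinc out of the cell, was higher after knockdown in both pairs. It was at 4.86 FPKM in si-ctrl 1 and 4.95 in si-ctrl 2, and at 6.62 in si-Atad2 1 and 6.71 in si-Atad2 2. The libraries of each group lay close together and the groups did not overlap. The increase was 36.2% in pair 1 and 35.7% in pair 2, with log2 ratios of 0.38 and 0.37. The direction was thus opposite to that of Mt1 and Mt2. An antisense gene is annotated over part of Slc30a1, and the sources do not say whether strand was used in counting, so reads of the 2 genes cannot be told apart.

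Slc30a5, which loads zinc into the secretory pathway, was at 22.2 and 23.1 FPKM in the si-ctrl libraries and 21.0 and 21.8 FPKM in the si-Atad2 libraries, in the order of the pairs. The higher si-Atad2 library lay just under the lower si-ctrl library, and the mean log2 ratio was -0.08. Slc39a1, an importer of the plasma membrane, was at 17.7 and 17.4 FPKM in si-ctrl and 16.7 and 17.2 FPKM in si-Atad2, a mean log2 ratio of -0.04 ± 0.03. Slc39a10, an importer known to be repressed by MTF-1 when zinc is high, was at 20.2 and 20.4 FPKM in si-ctrl and 22.0 and 21.8 FPKM in si-Atad2, a mean log2 ratio of 0.11 ± 0.01. These 3 transporters moved by 10% or less in each pair, with the si-Atad2 libraries just outside the range of the si-ctrl libraries.

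Counted together, 4 of the 7 genes (Mt1, Mt2, Slc30a5 and Slc39a1) were lower in both si-Atad2 libraries than in both si-ctrl libraries, where 26.8% of all genes tested were, and 2 (Slc30a1 and Slc39a10) were higher in both, where 22.5% were. Since the genes were chosen from this contrast, nothing is read from these counts. By level, the order in both si-ctrl libraries was Mt2, Mt1, Slc30a5, Slc39a10, Slc39a1, Slc30a1 and Mtf1, from high to low. In the si-Atad2 libraries Slc39a10 was above Slc30a5 in pair 1 and both genes were at 21.8 FPKM in pair 2.

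**Figure D2:**
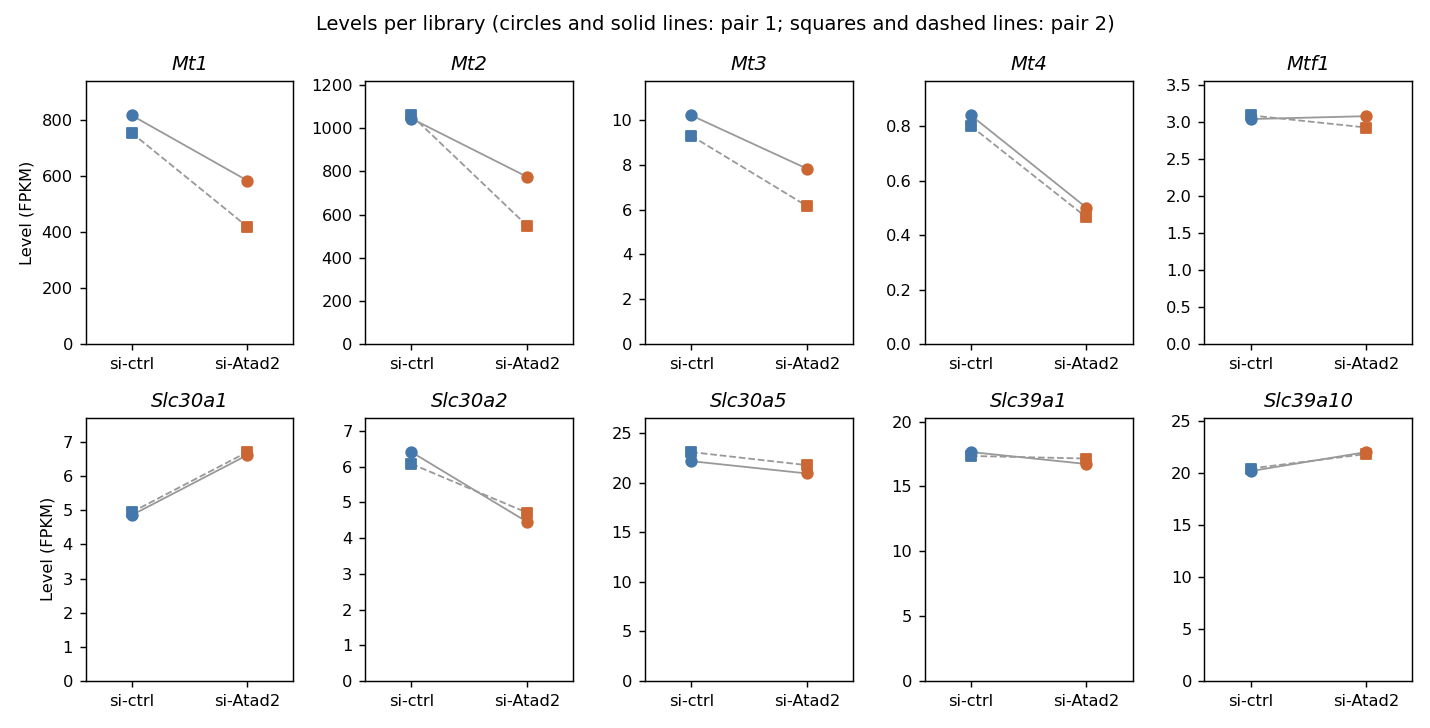
FPKM of each gene in each library, with si-ctrl in blue and si-Atad2 in orange, circles and solid lines for pair 1 and squares and dashed lines for pair 2; each panel has its own axis from 0. Mt1 to Mt4 and Slc30a2 are lower in both si-Atad2 libraries, Slc30a1 is higher in both, and Mtf1 overlaps.

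**Figure D3:**
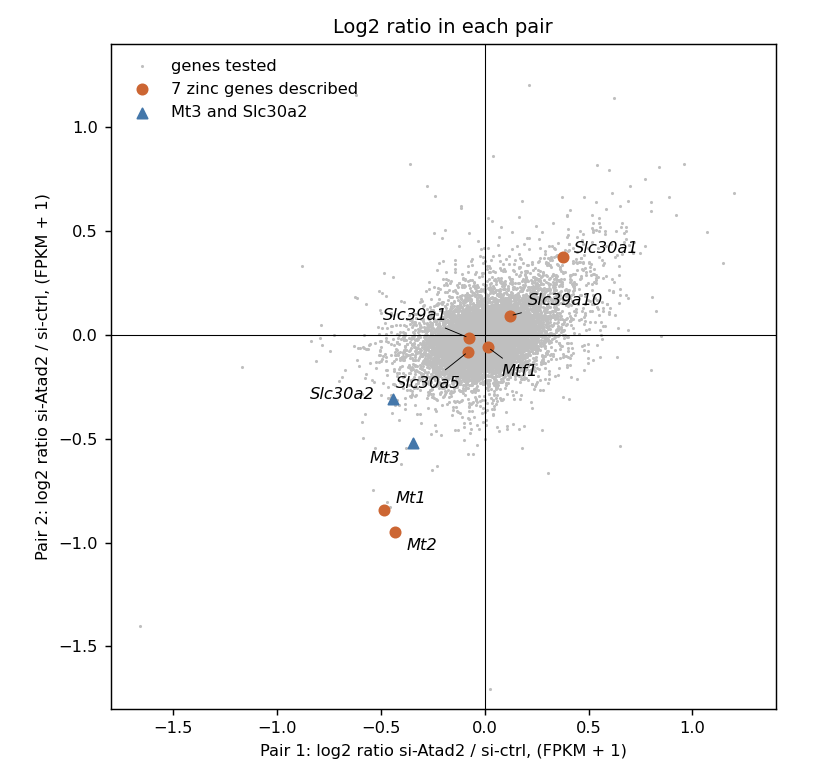
Log2 ratio after knockdown in pair 1 (horizontal axis) and pair 2 (vertical axis) for the genes tested (grey; 3 genes lie outside the axes), the 7 zinc genes (orange) and Mt3 and Slc30a2 (blue triangles). Mt1 and Mt2 lie to the lower left of nearly all genes, farther down in pair 2 than in pair 1, and Slc30a1 lies at 0.38 and 0.37.

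The other genes of the same families were not used in the choice and were tested in the limma fit over all 10039 genes, at an adjusted p threshold of 0.05. Its SE and p rest on the 2 within-pair differences of each gene. If the replicates are repeat sequencing, this SE and p do not measure variation between cultures. That fit called 163 genes higher and 45 lower. After rescaling to TPM, 11886 genes were tested, and 198 were called higher and 25 lower. Of 22 other genes of the families, Mt3, Mt4 and the remaining Slc30 and Slc39 transporters, 18 had values and 11 passed the filter of a mean of 1 FPKM. Of those 11, 2 fell, 0 rose and 9 did not pass the threshold, where 0.448% of all genes tested fell and 1.62% rose. Their median log2 ratio was -0.05 beside -0.01 over all genes tested. The list was written with earlier results of these data known.

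Mt3, the metallothionein best known from the brain, was at 10.2 and 9.29 FPKM in the si-ctrl libraries and 7.83 and 6.16 FPKM in the si-Atad2 libraries. It fell, with both si-Atad2 libraries below both si-ctrl libraries and the lower one again si-Atad2 2 (log2 ratio -0.34 and -0.52, mean -0.43, SE 0.08, adjusted p = 0.017 by limma). Mt4, the metallothionein of stratified epithelia, was under the filter, at 0.84 and 0.80 FPKM in si-ctrl and 0.50 and 0.47 FPKM in si-Atad2. The deposited 95% limits of its values overlapped between the groups, reaching 61.8% to 85.4% either side, and it was not tested.

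Slc30a2, which moves zinc into vesicles, was at 6.41 and 6.08 FPKM in si-ctrl and 4.46 and 4.71 FPKM in si-Atad2. It fell in both pairs (mean log2 ratio -0.38, SE 0.08, adjusted p = 0.0358 by limma), the opposite direction to Slc30a1. Of the other 5 exporters tested, Slc30a4 was nearest to the threshold (log2 ratio 0.17, adjusted p = 0.339 by limma), and Slc30a9, the most abundant, was at 20.01 and 20.2 FPKM in si-ctrl and 20.1 and 18.8 FPKM in si-Atad2 (log2 ratio -0.05). Slc30a6 and Slc30a7 had log2 ratios of -0.07 and 0.08 and did not pass. The 4 importers tested, Slc39a4, Slc39a6, Slc39a9 and Slc39a14, had log2 ratios from -0.11 to 0.11 and adjusted p from 0.481 to 0.744 by limma, and 0 at an unadjusted p under 0.05. Slc39a14, the importer that also carries iron and manganese, was the most abundant of them at 18.4 and 19.6 FPKM in si-ctrl and 20.5 and 20.5 FPKM in si-Atad2.

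The calls of Mt3 and Slc30a2 were not firm. With rows under 200 bases kept, adjusted p by limma was 0.168 for Mt3 and 0.206 for Slc30a2. The log2 ratio of Mt3 was -0.37 without si-ctrl 1, -0.49 without si-ctrl 2, -0.58 without si-Atad2 1 and -0.28 without si-Atad2 2. For Slc30a2 it was -0.34, -0.41, -0.34 and -0.41 in the same order. Those fits leave 1 library in a group, so no p is given for them. In the fit without the replicate block, adjusted p by limma was 0.0817 for Mt3 and 0.0389 for Slc30a2, and after removal of the trend with GC content it was 0.0885 and 0.0733.

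The 4 metallothionein genes stand together on chromosome 8 in the order Mt4, Mt3, Mt2 and Mt1, with starts within 41.9 kb of that of Mt1. All 4 were lower in both si-Atad2 libraries than in both si-ctrl libraries, where 26.8% of all genes tested were. Mt1 and Mt2 were chosen for this and Mt4 was under the filter, so Mt3 is the only one of the 4 with a test. Within 250 kb of Mt1 and Mt2 there were 12 genes with values, of which 6 genes that are not metallothioneins passed the filter. None of these 6 passed the threshold, their log2 ratios ran from -0.14 to 0.24 and their lowest adjusted p by limma was 0.117. Of the 6, 1 was at an unadjusted p under 0.05 by limma, as were 1633 of the 10039 genes tested. Nudt21, a subunit of the cleavage and polyadenylation machinery, had the highest ratio of them, with 13.1 and 12.02 FPKM in si-ctrl and 15.3 and 14.6 FPKM in si-Atad2. Ogfod1 had the lowest, with -0.07 in pair 1 and -0.20 in pair 2. Nup93, the nucleoporin gene next to Mt1 on its other side, was at 67.5 and 68.5 FPKM in si-ctrl and 70.3 and 69.4 FPKM in si-Atad2, a log2 ratio of 0.04. Bbs2 and Herpud1 had log2 ratios of -0.08 and 0.12.

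**Figure D4:**
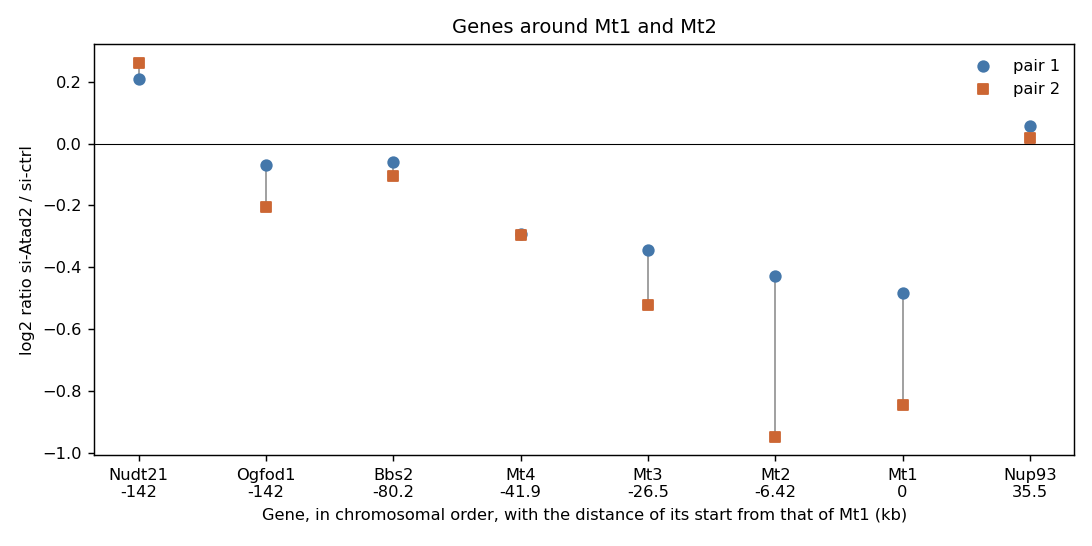
Log2 ratio after knockdown in pair 1 (circles) and pair 2 (squares) for genes that start within 150 kb of Mt1, in chromosomal order, with the distance of each start from that of Mt1 in kb under its name. Mt4, Mt3, Mt2 and Mt1 lie below 0 in both pairs, at -0.29 or lower, and the 4 flanking genes drawn lie between -0.20 and 0.26.

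The genes that regulate metallothionein transcription or answer the same stimuli were examined in lists written with earlier results known. Of 6 regulators other than Mtf1, 0 passed the threshold, with adjusted p from 0.52 to 0.901 by limma. The glucocorticoid receptor gene Nr3c1 had a log2 ratio of -0.03, Stat3 0.06, Usf1 -0.09, Usf2 0.03, Sp1 0.07 and Nfe2l2, which encodes the oxidative stress factor NRF2, 0.07. Of 4 other genes bound or regulated by MTF-1, Gclc, Selenow, Ndrg1 and Csrp1, 0 passed, with log2 ratios from -0.15 to 0.01. The median log2 ratio was 0.04 for the regulators and -0.05 for the other MTF-1 genes. At an unadjusted p under 0.05, 0 genes of either list passed, while 1633 of all genes tested did.

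Of 13 oxidative stress and glutathione genes tested by limma, 1 rose and 12 did not pass. Of the 13, 3 were at an unadjusted p under 0.05, as were 1633 of the 10039 genes tested. Srxn1, which encodes the sulfiredoxin that restores oxidized peroxiredoxins, was at 14.4 and 14.6 FPKM in si-ctrl and 24.2 and 19.6 FPKM in si-Atad2 (log2 ratio 0.55, SE 0.08, adjusted p = 0.00545 by limma, higher in both pairs). With rows under 200 bases kept, its adjusted p by limma was 0.138. Its log2 ratio was 0.55 without si-ctrl 1, 0.56 without si-ctrl 2, 0.41 without si-Atad2 1 and 0.70 without si-Atad2 2. Gpx4, which encodes a glutathione peroxidase that reduces lipid peroxides, was nearest to the threshold among the others, at 5.49 and 5.43 FPKM in si-ctrl and 6.35 and 9.05 FPKM in si-Atad2 (log2 ratio 0.41, adjusted p = 0.0709 by limma). The most abundant genes of the list, Prdx1, Sod1 and Txn1, had log2 ratios of -0.02, -0.12 and -0.13 and did not pass. The median of the list was -0.02.

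Of 5 glucocorticoid-responsive genes tested by limma, 0 passed, and their median log2 ratio was 0.03. At an unadjusted p under 0.05 there were 2, beside 1633 of the 10039 genes tested. Fkbp5, a co-chaperone of the glucocorticoid receptor, was at 46.7 and 47.9 FPKM in si-ctrl and 37.4 and 41.4 FPKM in si-Atad2 (log2 ratio -0.26, adjusted p = 0.068 by limma), and Sgk1 had a log2 ratio of -0.30 (adjusted p = 0.114). Klf9, Dusp1 and Tsc22d3 had log2 ratios of 0.10, 0.05 and 0.03. Of 6 copper genes, with a median log2 ratio of -0.06, 0 passed (1 at an unadjusted p under 0.05), and the lowest adjusted p by limma was 0.0868, for Ccs, the copper chaperone of superoxide dismutase, with 22.3 and 21.3 FPKM in si-ctrl and 18.3 and 18.1 FPKM in si-Atad2. Atox1, Atp7a, Atp7b, Sco1 and Slc31a2 had log2 ratios from -0.16 to 0.10. Of 10 iron genes tested by limma, with a median of -0.03, 0 passed (1 at an unadjusted p under 0.05), among them Fth1 (log2 ratio -0.03), Tfrc (-0.10) and Ireb2 (0.12).

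By pattern over the 4 libraries, Mt1 and Mt2 were each other's nearest gene among the 4946 others with a mean of at least 10 FPKM. The distance, the Euclidean distance between log2 deviations from each gene's own mean, was 0.100. Sec13, a coat protein of vesicles that leave the endoplasmic reticulum, was next nearest to both, at 0.102 from Mt1 and 0.160 from Mt2. The fourth in order was Fgf15 for both, at 0.331 and 0.352, and the fifth was Klhl21 for Mt1 and Scd2 for Mt2. Sec13 was at 119.1 and 109.2 FPKM in si-ctrl and 81.9 and 64.7 FPKM in si-Atad2. As in Mt1 and Mt2, the lower of the si-Atad2 libraries was si-Atad2 2. These distances rest on 4 libraries and on the contrast that chose Mt1 and Mt2.

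The main transcripts of Mt1 and Mt2 are short and abundant, and the part of length and level in their values was not tested. The 111 genes whose main transcript is 500 to 600 bases long had a median log2 ratio of -0.04, and the 48 genes with a mean of at least 400 FPKM had a median of -0.09, both counts with Mt1 and Mt2 included. The quartiles of these groups were -0.11 and 0.05 for the short genes and -0.13 and -0.03 for the abundant ones.

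**Figure D5:**
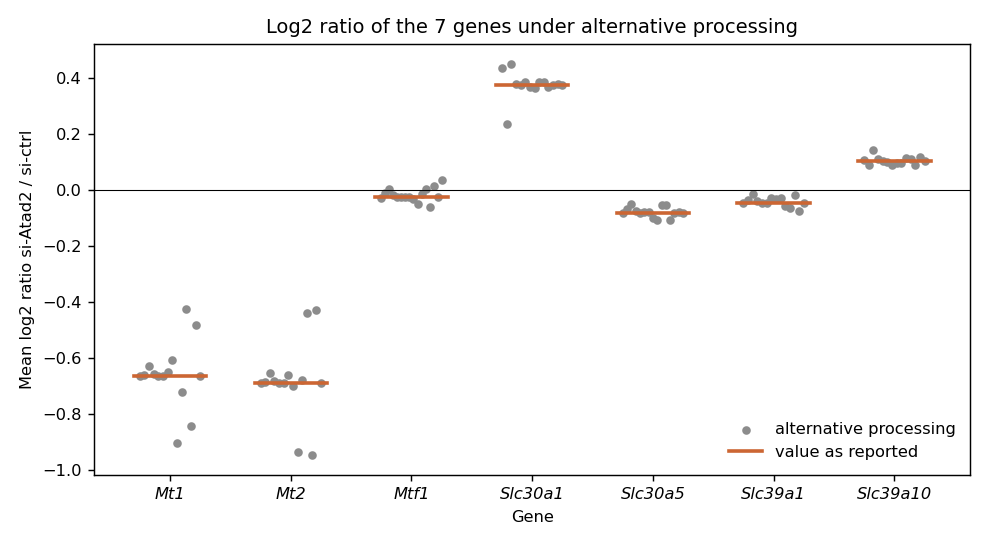
Mean log2 ratio of each of the 7 genes as reported (orange bar) and under each alternative processing, including values without 1 library or 1 pair (grey points). Mt1 stays between -0.90 and -0.43, Mt2 between -0.95 and -0.43 and Slc30a1 between 0.24 and 0.45, whereas the points of Mtf1 lie on both sides of 0. Only Mtf1 had overlapping groups, so leaving out libraries could not change the sign of the other genes.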

How the data were processed

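RNA of 4 libraries (2 si-ctrl, 2 si-Atad2) was made into TruSeq libraries and sequenced in paired ends of 50 cycles. The submitters' processing notes name TopHat and Cuffdiff, and the supplement names Bowtie; versions are not given in the sources used here. The notes name mm9, but the loci of the tables fit GRCm38. The authors' deposited FPKM values, with 95% limits, were computed by Cuffdiff separately for pair 1 and pair 2, for 59120 transcripts each entered as its own gene. Further deposited tables hold the authors' own comparisons and were not used. No counts are given, so the depth is unknown and no count model was used.

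Transcripts were named from GENCODE vM21: 14928 by a length within 3 bases inside the locus (edges within 60 bases), and 29606 as the locus's only coding gene. The remaining 14586 were left without a name, so the level of a gene, such as Gpx4, may lack some of its transcripts. Rows under 200 bases were dropped and FPKM summed per gene. Genes whose mean reached 1 FPKM and whose estimates had status OK in every library entered limma 3.58.1 (R 4.3.3) on the within-pair differences of log2(FPKM + 1), a pseudocount that understates changes of low genes, with eBayes with a trend and Benjamini-Hochberg adjustment at 0.05. The script was tested on simulated data with log2 changes of 1 and 2 in either direction. Smaller changes, such as those of Mt3, Slc30a2 and Srxn1, were not covered. The pairing comes from the authors' runs. The si-ctrl and si-Atad2 libraries with the same number did not deviate together (Pearson correlation over genes -0.037). With 2 libraries a group an exact permutation test that ignores the pairs cannot go below p = 0.333, so none was run.

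The members and gene lists were chosen with earlier results of these data known. Named are the 7 genes, in each list the genes past the threshold and the 3 most abundant others (all where 6 or fewer were tested), tested genes within 250 kb of Mt1 and Mt2, the 5 nearest patterns, and Atad2; other names (Sox2, Lum, Afp, Ttr, Mt4 and Gpx4) were added after their values were seen. Some genes that this rule names are not reported here. Python 3.11.15, pandas 2.3.3, numpy 2.4.6, statsmodels 0.14.6 and matplotlib 3.10.9 were used.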

Additional observations from a re-analysis of the deposited data

How the results depend on the processing

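Mt1 and Mt2 stayed negative and Slc30a1 and Slc39a10 positive under every alternative that gave a value, Slc30a5 and Slc39a1 stayed negative, and Mtf1 changed sign. For the genes other than Mtf1 the groups did not overlap, so leaving out libraries could not change the sign. Mt1 and Mt2 were also chosen because they fell in these values. Without replicate 1 the log2 ratios of Mt1 and Mt2 were -0.84 and -0.95, and without replicate 2 they were -0.48 and -0.43. Leaving out a replicate number leaves 1 pair, so the counts could not be fitted there.

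The fit as reported had 208 genes past the threshold of 10039 tested. With rows of all lengths it was 12 of 10083, and with the highest row only 91 of 9892. With rows named by length only it was 31 of 3662. With the GC trend removed in the fit with the replicate block it was 99 of 10039. It was 0 of 17662 with no minimum level (1760 at an unadjusted p under 0.05) and 423 of 10039 at a threshold of 0.1. Leaving out 1 library, in fits without the block that take the lone library to vary like the other group, gave 29 without si-ctrl 1, 15 without si-ctrl 2, 732 without si-Atad2 1 and 1932 without si-Atad2 2. In the fit with no replicate block it was 164.

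The 2 other zinc genes past the threshold became 1 after rescaling to TPM (Mt3) and 1 with no replicate block (Slc30a2). It was 0 with rows of all lengths, the highest row only, rows named by length only, the GC trend removed and no minimum level, and 0 to 3 without 1 library. The 1 gene of the other lists became 3 with a pseudocount of 5 FPKM, 2 with the highest row only and 4 at a threshold of 0.1. It was 0 with rows of all lengths, rows named by length only and no minimum level, 1 with no replicate block, and 0 to 10 without 1 library. The causes were not tested. Rows named by length only gave no value for Mt1, Mt2, Slc30a1, Slc39a1 and Slc39a10. They gave none for Slc30a2 and Srxn1 either, so these genes could not pass the threshold in that setting. Only 4 of the other zinc genes and 11 genes of the other lists were tested there, beside 11 and 43 in the fit as reported. The sum that includes the unnamed Mtf1 row was added after seeing the data.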
